A study of Macaca fascicularis with 6 samples.

Results

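The collagen II, IX and XI chains of cartilage are encoded by 6 genes, *COL2A1*, *COL9A1*, *COL9A2*, *COL9A3*, *COL11A1* and *COL11A2*, which were chosen by name. Of these 6 genes, 5 were listed in both count matrices, which hold 13950 and 14020 genes. *COL9A3* was not analysed here. Collagen II forms the thin fibrils of hyaline cartilage. Collagen XI is built into the same fibrils, where it helps to set their start and their width, and one of its chains is a product of the *COL2A1* gene. Collagen IX lies on the fibril surface, is made of 1 chain from each *COL9* gene, and links fibrils to other matrix components. SOX9, with SOX5 and SOX6, is the best known transcriptional activator of these genes in chondrocytes.

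Single-cell transcriptomes of 5 samples of the cynomolgus monkey were measured by TAS-Seq. The samples were undifferentiated iPS cells (cyiPSC), the cartilage organoids differentiated from them (pre-transplant cyiPS-Cart), such organoids recovered 4 months after they were placed into chondral defects of the knee (post-transplant cyiPS-Cart), articular cartilage that was left intact (cyAC), and fibrous tissue from defects that were left empty (cyFT). The iPS cells and the organoids carry an EGFP reporter gene, the study's methods describe them as 1 MHC-homozygous line, and the organoids were made with TGF-β1, GDF5 and BMP2. cyAC and cyFT came from wild-type monkeys of 3 to 4 years. The label of the post-transplant sample also gives a wild-type genotype and 3 to 4 years, which is the host, whereas the study describes the recovered cells as coming from the EGFP line. The methods describe several monkeys in each group and the joining of the transplanted sites of each monkey, whereas how animals were pooled into a library is not given in the sources used here.

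Each condition was 1 sample, so no test between conditions was possible and every interval below covers counting error only. cyiPSC and pre-transplant cyiPS-Cart shared 1 library, cyAC and cyFT shared another, and post-transplant cyiPS-Cart was sequenced alone. Library and condition therefore cannot be told apart for post-transplant cells, nor between pre-transplant cyiPS-Cart and cyAC. Pre-transplant organoids were also digested in another medium, with TGF-β1, GDF5 and BMP2, than the post-transplant organoids and cyAC. The first matrix held 2500 cyiPSCs and 3527 pre-transplant cells, with medians of 143075 and 59249 reads per cell. The second matrix held 320 cells of each other sample, with medians between 27500 reads in cyFT and 80336 in post-transplant cyiPS-Cart, and 300 of its pre-transplant cells were also in the first matrix. The chondrocyte marker list (*ACAN*, *SOX9*, *HAPLN1*, *MATN3* and *CNMD*) had reads of all 5 genes in each sample and summed to 7353 to 9884 CPM (reads of a gene per 1000000 reads of the sample) in the 4 cartilage or defect samples, against 31.3 CPM in cyiPSC. The pluripotency list summed to 359.5 CPM in cyiPSC and to 1.24 to 7.71 CPM elsewhere, and *NANOG*, *LIN28A* and *SOX2* had no reads in post-transplant cyiPS-Cart, cyAC and cyFT. Libraries shared at most 4 cell barcode numbers.

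The zeros of these genes need a word before the levels. The authors set counts they took for diffused RNA to 0, gene by gene, and the lowest counts left differed between libraries. In the library of cyiPSC and pre-transplant cyiPS-Cart, the lowest non-zero count was 145 reads for *COL2A1*, 51 for *COL11A1*, 17 for *COL9A1*, 10 for *COL9A2* and 9 for *COL11A2*. In the post-transplant library it was 354, 9, 16, 11 and 12 reads in the same order. In the library of cyAC and cyFT it was 211 reads for *COL2A1* and 1 read for each of the other 4 genes. A cell listed at 0 for *COL2A1* could therefore have held many reads before the correction, and a share of cells with *COL9* or *COL11* reads is not measured alike in the last library and the other 2. *COL1A1*, which is used below to split cells, had lowest counts of 276, 497 and 76 reads in the same order of libraries. A cell without *COL1A1* reads could thus also have held reads before the correction.

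**Figure D1:**
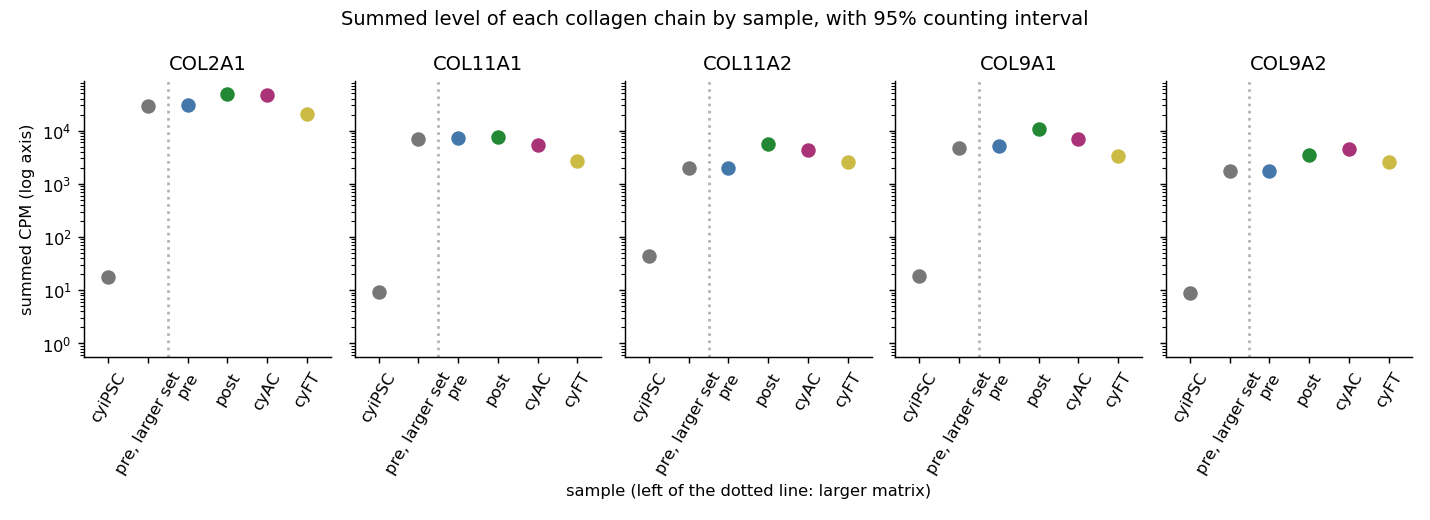
Summed level of each chain by sample, in CPM on a log axis, with 95% Poisson intervals that are mostly smaller than the points. Each panel is 1 gene, and grey points are the 2 samples of the larger matrix. cyiPSC lies far below the other samples in each panel, *COL2A1* is highest in post-transplant cyiPS-Cart and cyAC, and *COL11A1* lies at nearly the same height in pre- and post-transplant cyiPS-Cart.

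*COL2A1*, the fibril-forming chain, reached 30156 CPM in pre-transplant cyiPS-Cart, 49488 CPM in post-transplant cyiPS-Cart, 47410 CPM in cyAC and 20777 CPM in cyFT. The order of the summed levels was thus post-transplant cyiPS-Cart, cyAC, pre-transplant cyiPS-Cart and cyFT. The quartiles over cells were 39898 to 59651 CPM in post-transplant cyiPS-Cart and 26154 to 64808 CPM in cyAC, so the cells of the leading pair of samples overlapped widely. Reads of *COL2A1* were found in 93.8% of pre-transplant cells (95% Clopper-Pearson interval 90.5 to 96.1), 97.5% of post-transplant cells (95.1 to 98.9), 87.2% of cyAC cells (83.0 to 90.7) and 36.6% of cyFT cells (31.3 to 42.1). In the cells with at least 12191 reads, which left out 1 pre-transplant, 12 cyAC and 32 cyFT cells, the shares were 94.04%, 97.5%, 88.6% and 39.9%, both before and after thinning to that depth. The upper quartile of all cyFT cells, 29892 CPM, was close to the median of pre-transplant cells, 30781 CPM, while the median cyFT cell had no *COL2A1* reads.

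*COL11A1*, which encodes the α1 chain of collagen XI, had 7111 CPM in pre-transplant cyiPS-Cart, 7528 CPM in post-transplant cyiPS-Cart, 5380 CPM in cyAC and 2728 CPM in cyFT. *COL11A2*, which encodes the α2 chain, had 2012, 5586, 4380 and 2523 CPM in the same samples. The 2 chains of collagen XI therefore followed different orders, since pre-transplant cyiPS-Cart was second highest for *COL11A1* and lowest for *COL11A2*. Over pre-transplant cells *COL11A1* was also the most evenly spread of the 5 genes, with a 10th percentile of 3986 CPM and a 90th of 10401 CPM, and with reads in 319 of the 320 cells.

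*COL9A1* and *COL9A2* encode the α1 and α2 chains of collagen IX. *COL9A1* had 5108 CPM in pre-transplant cyiPS-Cart, 10498 CPM in post-transplant cyiPS-Cart, 6879 CPM in cyAC and 3270 CPM in cyFT. *COL9A2* had 1752, 3518, 4501 and 2605 CPM. Post-transplant cyiPS-Cart was thus highest for *COL9A1*, and cyAC for *COL9A2*. Over all 5 genes, the 95% Poisson intervals of these sums reached at most 1.17% to either side, and neighbours in each order differed by more than these intervals, but the spread between samples of a condition is unknown. The 5 genes together took 4.61% of the reads of pre-transplant cyiPS-Cart, 7.66% of post-transplant cyiPS-Cart, 6.86% of cyAC and 3.19% of cyFT.

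**Figure D2:**
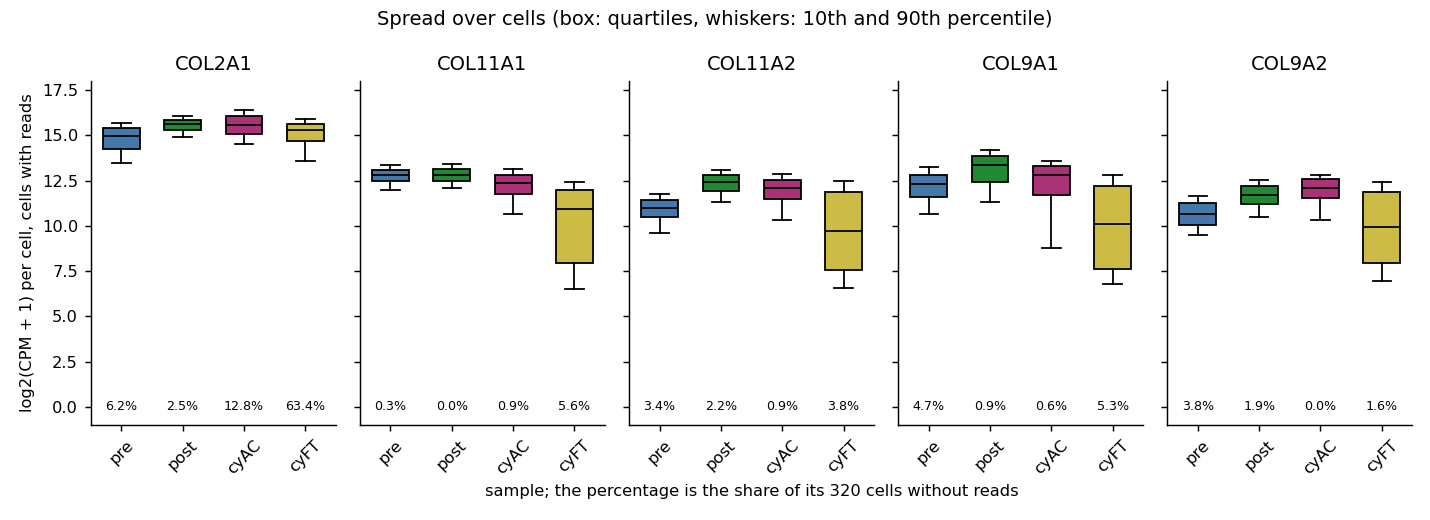
Levels over single cells as log2(CPM + 1) in the cells with reads, with a panel for each gene and a box for each of the 4 samples of the second matrix (quartiles, whiskers at the 10th and 90th percentiles). The percentage under each box is the share of the 320 cells without reads, which is 63.4% for *COL2A1* in cyFT, and the cyFT boxes of the other 4 genes reach lowest.

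The comparison of pre-transplant cyiPS-Cart with cyiPSC asks how far the chains came up during chondrogenic differentiation, and it used the first matrix. All 5 genes were past 2-fold and higher in pre-transplant cyiPS-Cart, where 18.4% of 4684 genes tested were at least 2-fold higher and 38.5% at least 2-fold lower. A gene was tested if it had at least 50 CPM in either sample, and all 5 genes lay under this limit in cyiPSC. They were thus tested only through pre-transplant cyiPS-Cart, and for all but *COL11A2* reaching the limit there already meant a ratio past 2-fold. The count of 5 is therefore not a like comparison with the 18.4%, and the sizes of the folds say more. *COL2A1* had 28572 CPM against 17.8 CPM in cyiPSC (1608-fold, 95% conditional interval 1572 to 1646). *COL11A1* had 6974 against 9.46 CPM (738-fold), *COL9A1* 4785 against 18.7 CPM (256-fold), *COL9A2* 1722 against 9.01 CPM (191-fold) and *COL11A2* 1992 against 44.98 CPM (44.3-fold). The median gene tested had a log2 ratio of -0.63, and TMM scaling shifted all ratios of this comparison by 0.67, with which 26.8% of all genes were at least 2-fold higher and 19.2% lower. These folds lean on the zeros. If every cyiPSC at 0 had held 1 read fewer than the lowest count of its library, the folds would be 32.4 for *COL2A1*, 22.7 for *COL11A1*, 45.9 for *COL9A1*, 29.0 for *COL9A2* and 27.1 for *COL11A2*. *COL11A2* moved least under this bound, and *COL2A1* most.

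The reads in cyiPSC were not spread alike. *COL2A1* reads were found in 10 of the 2500 cyiPSCs and *COL11A1* reads in 22, whereas *COL11A2* reads were found in 1023 cells (40.9%, 39.0 to 42.9; 37.0% at 30967 reads per cell), at a median of 15 reads in the cells that had them. *COL9A1* reads were found in 11.1% and *COL9A2* reads in 7% of cyiPSCs. Of the 881 cyiPSCs with reads of 1 chain alone, 749 had *COL11A2*. In contrast, 10 cyiPSCs had reads of 4 or 5 chains. They held 95.2% of the *COL2A1* reads and 70.6% of the *COL11A1* reads of cyiPSC, but only 3.45% of the *COL11A2* reads. These 10 cells had a median of 209148 reads against 142800 in the other cyiPSCs, 10 of them had *ACAN* reads, 8 had *NANOG* reads, and the doublet caller marked 8 of them. Without them the log2 ratio of *COL2A1* went from 10.57 to 13.91, that of *COL11A1* from 9.38 to 10.84, and all 5 genes were still past 2-fold. These cells were picked by their reads of the 5 genes, so leaving them out was bound to raise the ratios. Their large part of the *COL2A1* reads also follows in part from that choice.

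The comparison of post-transplant with pre-transplant cyiPS-Cart asks what differed in the organoids 4 months after surgery. Of the 5 genes, 3 were at least 2-fold higher in post-transplant cyiPS-Cart and 0 were at least 2-fold lower, against 8.16% and 22.1% of 3421 genes tested. *COL11A2* differed most, at 2.78-fold (2.75 to 2.81). *COL9A1* was 2.06-fold higher (2.04 to 2.07), *COL9A2* 2.01-fold (1.99 to 2.03) and *COL2A1* 1.64-fold (1.64 to 1.65). *COL11A1* was 1.06-fold higher (1.05 to 1.07), a log2 ratio of 0.08. The median gene tested was at -0.39, and relative to it the log2 ratios were 1.86 for *COL11A2*, 1.43 for *COL9A1*, 1.39 for *COL9A2*, 1.10 for *COL2A1* and 0.47 for *COL11A1*. TMM scaling shifted all of them up by 0.22, with which 10.96% of all genes were at least 2-fold higher and 14.8% lower. Both *COL9* genes lay close to the 2-fold line. With totals taken without mitochondrial genes, 1 gene was past it, where 7.63% of the genes tested were at least 2-fold higher. The same count was found in cells without *COL1A1* reads, in which 8.68% of 3374 genes were at least 2-fold higher and the log2 ratio of *COL11A2* was 1.39 and those of *COL9A1* and *COL9A2* were 0.93 and 0.90.

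Post-transplant cyiPS-Cart was then set beside cyAC, the intact tissue. None of the 5 genes (0 of 5) was past 2-fold, where 10.8% of 3235 genes tested were at least 2-fold higher and 17.8% at least 2-fold lower in post-transplant cyiPS-Cart. *COL9A1* was 1.53-fold higher (1.51 to 1.54), *COL11A1* 1.40-fold (1.39 to 1.41), *COL11A2* 1.28-fold (1.26 to 1.29) and *COL2A1* 1.04-fold (1.04 to 1.05). *COL9A2* was the only gene of the 5 with a lower summed level, at 0.782 of the cyAC level (0.773 to 0.790). Among cells with *COL2A1* reads, a choice that its own zeros set, the log2 ratio of *COL2A1* was -0.08 in place of 0.06. In cells with *COL1A1* reads, 54 in post-transplant cyiPS-Cart and 19 in cyAC, the log2 ratios were larger. They were 2.27 for *COL2A1*, 1.91 for *COL9A1*, 0.88 for *COL9A2*, 2.03 for *COL11A1* and 1.70 for *COL11A2*. In the 266 and 301 cells without *COL1A1* reads they went from -0.31 for *COL9A2* to 0.72 for *COL9A1*. TMM scaling shifted the comparison over all cells by 0.12.

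Pre-transplant cyiPS-Cart was also set beside cyAC. *COL9A2*, at 0.389 of the cyAC level (0.384 to 0.394), and *COL11A2*, at 0.459 (0.454 to 0.465), were past 2-fold and lower, so 2 of 5 genes were lower and 0 higher, against 11.3% and 15.7% of 3498 genes tested. *COL2A1* stood at 0.636 and *COL9A1* at 0.743 of the cyAC level, whereas *COL11A1* was 1.32-fold higher. The median gene was at 0.28 on the log2 scale, so that *COL11A1*, at 0.40, lay 0.12 above it. TMM scaling shifted all ratios by -0.11. Without cells that had *COL1A1* reads, 1 gene was past 2-fold and lower, against 11.6% of 3439 genes tested.

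**Figure D3:**
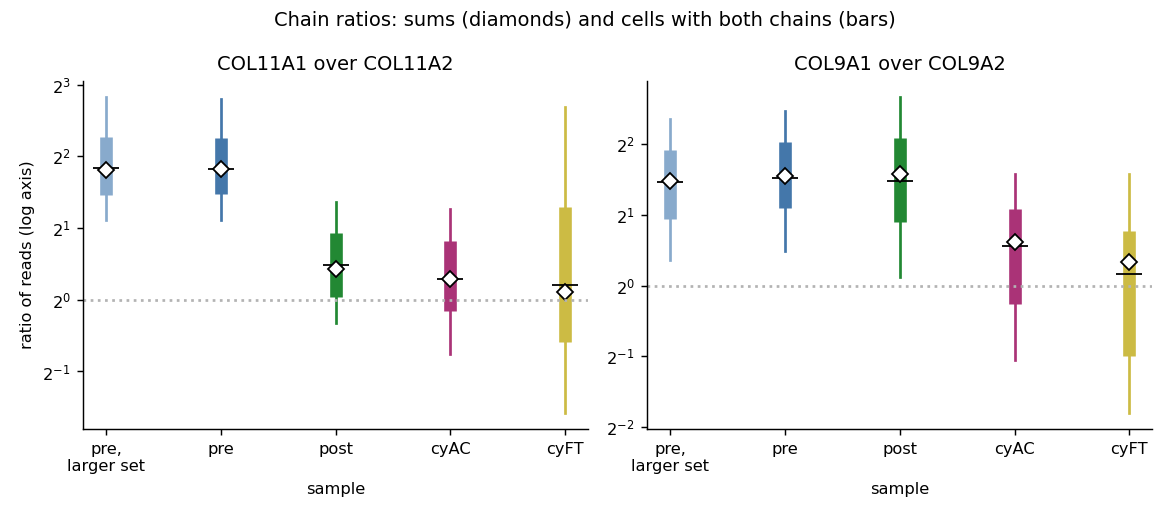
Ratio of *COL11A1* to *COL11A2* reads (left) and of *COL9A1* to *COL9A2* reads (right) on log axes, by sample. Diamonds are ratios of summed reads, and bars show the 10th to 90th percentile (thin) and the quartiles (thick) over cells with reads of both genes, with the median as a line. The left panel drops between pre- and post-transplant cyiPS-Cart, whereas in the right panel both organoid samples lie above cyAC and cyFT.

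Because the genes differ in length, the ratio of 2 chains was only compared between samples. The ratio of *COL11A1* to *COL11A2* reads was 3.53 in pre-transplant cyiPS-Cart (3.50 to 3.57), 1.35 in post-transplant cyiPS-Cart (1.34 to 1.36), 1.23 in cyAC (1.21 to 1.24) and 1.08 in cyFT (1.06 to 1.10). The larger set of pre-transplant cells gave 3.50. In single cells with both chains, the 10th percentile of pre-transplant cells, 2.16, lay above the upper quartile of post-transplant cells, 1.90, so that most cells of the 2 samples did not overlap. *COL11A1* had more reads than *COL11A2* in 100% of pre-transplant cells with both and in 75.4% of post-transplant cells.

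The ratio of *COL9A1* to *COL9A2* reads behaved differently. It was 2.92 in pre-transplant cyiPS-Cart (2.88 to 2.95) and 2.98 in post-transplant cyiPS-Cart (2.96 to 3.00), against 1.53 in cyAC (1.51 to 1.54) and 1.26 in cyFT (1.24 to 1.28). Median ratios over cells were 2.88, 2.80, 1.479 and 1.12, and the quartiles of post-transplant cells, 1.87 to 4.26, overlapped those of cyAC, 0.837 to 2.11. Thus the *COL11* ratio of post-transplant cyiPS-Cart lay near that of cyAC and the *COL9* ratio near that of pre-transplant cyiPS-Cart. The organoids before and after transplantation and the 2 tissues were in 3 libraries with different lowest counts of these 4 genes, and the part of the library in these ratios was not tested.

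Each chain was also set against *COL2A1*. *COL11A1* had 0.236 reads per *COL2A1* read in pre-transplant cyiPS-Cart, 0.152 in post-transplant cyiPS-Cart, 0.113 in cyAC and 0.131 in cyFT. *COL11A2* had 0.0667, 0.113, 0.0924 and 0.121. *COL9A1* stayed within a narrower range of 0.145 to 0.212 over the 4 samples, while *COL9A2* went from 0.0581 in pre-transplant cyiPS-Cart over 0.0711 in post-transplant cyiPS-Cart to 0.0949 in cyAC and 0.125 in cyFT.

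The comparison of cyFT with cyAC contrasts the tissue that filled empty defects with intact cartilage, within 1 library. All 5 genes were lower in cyFT, and 2 of them were past 2-fold, where 3.73% of 3270 genes tested were at least 2-fold lower and 7.06% at least 2-fold higher. *COL2A1* stood at 0.438 of the cyAC level (0.436 to 0.440), *COL9A1* at 0.475, *COL11A1* at 0.507, *COL11A2* at 0.576 and *COL9A2* at 0.579. As the mean of per-cell CPM, or with cells thinned to equal depth, all 5 genes were past 2-fold and lower. By these measures 5.08% of 3270 and 4.74% of 2805 genes tested were at least 2-fold lower. In cells without *COL1A1* reads, 117 in cyFT and 301 in cyAC, 0 of the 5 genes were past 2-fold, with log2 ratios from -0.58 for *COL11A1* to -0.24 for *COL11A2*, where 4.18% of 3208 genes were at least 2-fold lower. The cyFT cells with *COL2A1* reads had a median of 44289 reads and those without had 22771, so the former weighed more in the sums. TMM scaling shifted all ratios by -0.18, with which 5.32% of all genes were at least 2-fold lower and 5.02% higher. If every cyFT cell at 0 had held 1 read of *COL2A1* fewer than the lowest count of the library, the summed level would be 24622 CPM, or 0.519 of the cyAC level.

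Cells with *COL2A1* reads were therefore compared on their own, a split that was chosen after the values were seen. In the 117 cyFT and 279 cyAC cells with *COL2A1* reads, *COL9A1* had 5812 against 7759 CPM, *COL9A2* 4495 against 5010, *COL11A1* 4483 against 6020 and *COL11A2* 4420 against 4872 CPM. The log2 ratios were -0.42, -0.16, -0.43 and -0.14, and 0 of these 4 chains were past 2-fold, where 4.14% of 3137 genes tested in these cells were at least 2-fold lower and 4.91% at least 2-fold higher. *COL2A1* itself had a log2 ratio of -0.40 there, which is not counted, since its own reads chose the cells. In the 203 cyFT cells without *COL2A1* reads, the same 4 genes had 647, 656, 919 and 567 CPM, and 91.1% to 97.5% of these cells still had reads of each of them. In the 41 cyAC cells without *COL2A1* reads they had 386, 745, 654 and 748 CPM, so that cyFT was higher there for *COL9A1* (log2 ratio 0.74) and *COL11A1* (0.49) and lower for *COL9A2* (-0.18) and *COL11A2* (-0.40). In the 203 cyFT and 19 cyAC cells with *COL1A1* reads, the log2 ratios of these 4 genes were also above 0, from 0.06 for *COL9A1* to 0.29 for *COL11A1*, and that of *COL2A1* was -0.27. Of the 19 cyAC cells, 3 also had *COL2A1* reads and far higher levels. In cells with *COL1A1* reads only, 170 in cyFT and 16 in cyAC, *COL9A1* had 768 against 539 CPM, *COL9A2* 780.5 against 374, *COL11A1* 1134 against 466 and *COL11A2* 633 against 387 CPM. In cells with reads of neither *COL2A1* nor *COL1A1*, 33 in cyFT and 25 in cyAC, cyFT was lower for all 4 genes. There *COL9A1* had 181.6 against 289.5 CPM, *COL9A2* 176 against 980, *COL11A1* 93.9 against 774 and *COL11A2* 314 against 977.5 CPM. Thus the direction found over all cells did not hold in each class of cells. In the cells with *COL1A1* reads only, the median cell had 7, 8, 14.5 and 6 reads of these 4 genes in cyFT. In cyAC it had 6, 8.5, 9 and 6 reads. These counts are low, and the sums lean on the cells with more reads. Among the 203 cyFT cells without *COL2A1* reads, 15 had reads of at least 2 immune markers and none of *COL1A1*, a kind of cell that should lack the chains. Of these 15 cells, with a median depth of 46002 reads, 86.7% (59.5 to 98.3) had *COL9A1* reads and 93.3% (68.1 to 99.8) had reads of each of the other 3 genes, intervals that hold the shares of all 203 cells. The levels in those 15 cells were 199 CPM for *COL9A1*, 182 for *COL9A2*, 102 for *COL11A1* and 191 for *COL11A2*, all below the levels in the 203 cells.

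**Figure D4:**
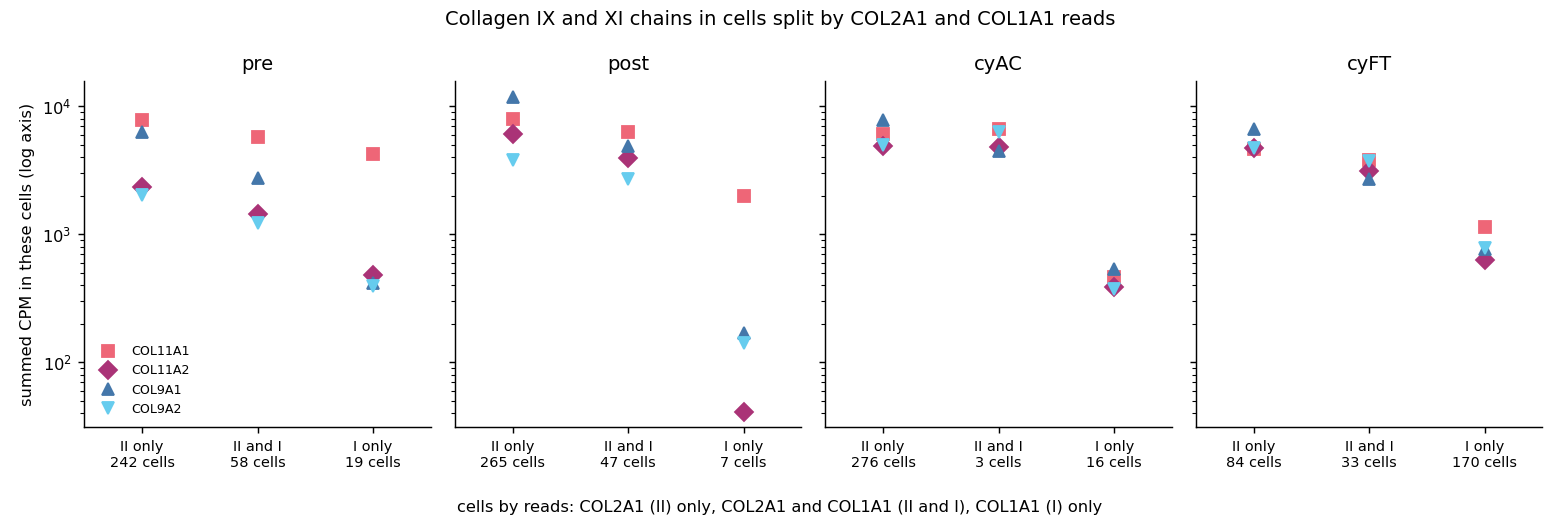
Summed CPM of the collagen IX and XI chains on a log axis in cells with *COL2A1* reads only, with reads of both *COL2A1* and *COL1A1*, or with *COL1A1* reads only, for each of the 4 samples. The cell number of each class is under the axis, down to 3 cells with both in cyAC. From left to right in the organoid panels, *COL11A1* (squares) drops least, and the other 3 chains drop further.

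*COL1A1*, the main chain of collagen I in fibrous tissue, had reads in 24.1% of pre-transplant cells, 16.9% of post-transplant cells, 5.94% of cyAC cells and 63.4% of cyFT cells. The lowest counts of *COL1A1* differed between libraries, so these shares are not measured alike across libraries. All 5 genes were lower in cells with *COL1A1* reads than in cells without, in each of the 4 samples. In pre-transplant cyiPS-Cart the log2 ratios between these cells were -1.66 for *COL2A1*, -1.43 for *COL9A1*, -0.91 for *COL9A2*, -0.88 for *COL11A2* and -0.50 for *COL11A1*. In post-transplant cyiPS-Cart they were -1.03, -1.49, -0.71, -0.84 and -0.50. *COL11A1* thus differed least in both organoid samples. It also differed least in cyFT, at -1.14 against -1.43 for *COL9A2*, the next. In cyAC *COL9A2* (-1.90) differed less than *COL11A1* (-2.02).

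In the larger set of pre-transplant cells, *COL11A1* also differed least between cells with and without *COL2A1* reads. In its 265 cells without and 3262 cells with *COL2A1* reads, *COL11A1* had 3641 against 7224 CPM, a log2 ratio of 0.99 between cells with and without. *COL9A1* had 273 against 5123 CPM (4.22), *COL9A2* 359 against 1824 CPM (2.34) and *COL11A2* 392.5 against 2112 CPM (2.42). The 2 chains of collagen XI thus differed in the cells that lacked *COL2A1* reads. In the 8 post-transplant cells without *COL2A1* reads, *COL11A1* had reads in all 8 (1973 CPM), *COL9A1* in 62.5%, *COL9A2* in 25% and *COL11A2* in 12.5%. In the 41 cyAC cells without *COL2A1* reads both chains of collagen XI were far lower than in the 279 cells with them, at 654 against 6020 CPM for *COL11A1* and 748 against 4872 CPM for *COL11A2*.

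Most organoid and cyAC cells had reads of all 5 genes. The share was 91.2% in pre-transplant cyiPS-Cart (87.6 to 94.1), 97.5% in post-transplant cyiPS-Cart (95.1 to 98.9), 87.2% in cyAC (83.0 to 90.7) and 36.6% in cyFT (31.3 to 42.1). In cyFT another 166 cells had 4 of the genes, and *COL2A1* was the one without reads in all 166. The same held for the 33 cyAC cells with 4 genes. In their library the lowest non-zero count was 211 reads for *COL2A1* and 1 read for the other 4 genes. *COL2A1* was therefore the gene most liable to be listed at 0. In post-transplant cyiPS-Cart, cyAC and cyFT the share with all 5 genes equalled the share with *COL2A1* reads. To compare libraries, a cell was also counted only from the highest of the 4 samples' lowest non-zero levels. For *COL11A1* this minimum was 1219 CPM, and 99.7% of pre-transplant, 99.1% of post-transplant, 90.6% of cyAC and 57.2% of cyFT cells reached it. For *COL9A2* it was 274 CPM, and 94.7%, 98.1%, 95.3% and 70.9% of cells reached it. Each minimum was set by a sample's own lowest level, and that sample lost no cell. At a minimum of 1000 CPM, *COL9A2* reached it in 74.7% of pre-transplant, 93.1% of post-transplant, 91.25% of cyAC and 49.1% of cyFT cells. For *COL11A1* these shares were 99.7%, 99.1%, 90.9% and 59.1%. The order of the samples thus differed between the 2 genes, with cyFT last for both. The 50% of cyFT cells with the fewest reads of the 5 genes held 1.55% of those reads, against 19.1% in cyAC, 21.8% before and 26.0% after transplantation of the organoids.

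**Figure D5:**
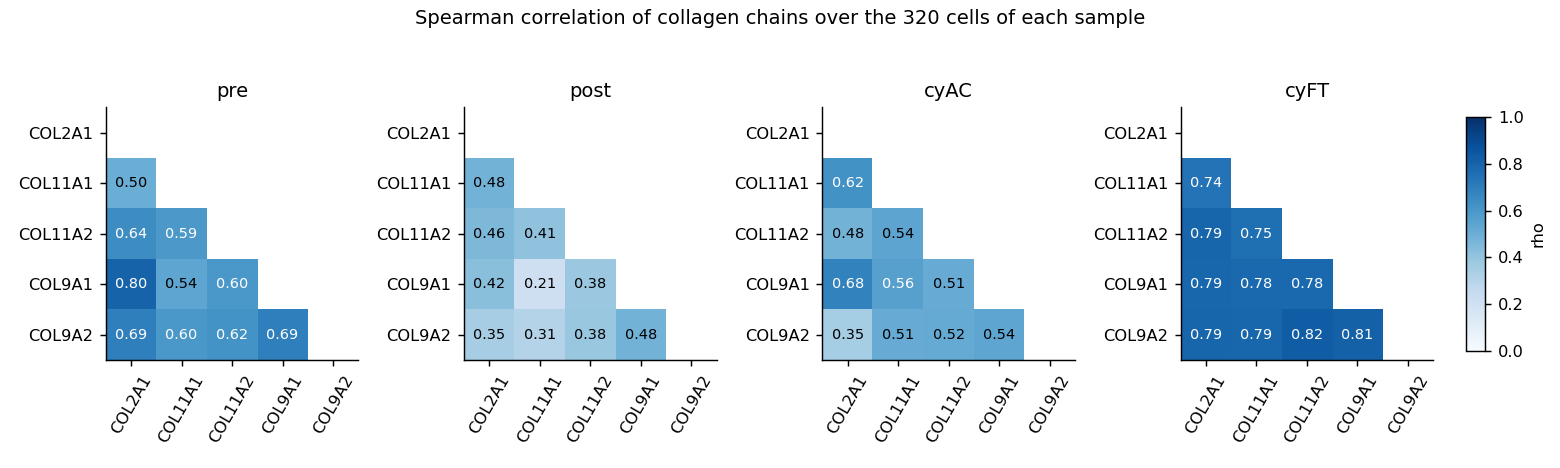
Spearman correlation of each pair of chains over the 320 cells of each sample, on log2(CPM + 1), with darker blue for a higher rho and the value in each square. All squares of cyFT are at 0.74 or more, and those of post-transplant cyiPS-Cart are between 0.21 and 0.48.

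Over the 320 cells of a sample, the 10 pairs of chains had a mean Spearman rho of 0.79 in cyFT, 0.63 in pre-transplant cyiPS-Cart, 0.53 in cyAC and 0.39 in post-transplant cyiPS-Cart. Without cells that had *COL1A1* reads it was 0.70, 0.53, 0.45 and 0.25. These values are descriptions over cells of 1 library sample that share its depth and its correction. The highest pair was *COL2A1* with *COL9A1* in pre-transplant cyiPS-Cart (0.80) and in cyAC (0.68), *COL2A1* with *COL11A1* in post-transplant cyiPS-Cart (0.48, as for *COL9A1* with *COL9A2*), and *COL9A2* with *COL11A2* in cyFT (0.82). The lowest pair was *COL9A1* with *COL11A1* in post-transplant cyiPS-Cart, at 0.21. Restricting each pair to cells with reads of both lowered the means to 0.65 in cyFT, 0.58 in pre-transplant cyiPS-Cart, 0.44 in cyAC and 0.35 in post-transplant cyiPS-Cart. *COL2A1* with *COL9A2* in cyAC then went from 0.35 to 0.09. The joint score of the 5 genes correlated with reads per cell at 0.40 in cyFT and at 0.03 to 0.11 in the other 3 samples, and thinning left the mean rho of cyFT at 0.79.

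By mean rho with the joint score of the 5 genes over the 4 samples, the 10 other genes most alike out of 2905 were *SNORC* (0.55), *ACAN* (0.54), *CNMD* (0.53), *SPARC* (0.53), *MATN3* (0.49), *HAPLN1* (0.45), *CHAD* (0.44), *SLC11A2* (0.43), *SERPINA3* (0.41) and *FRZB* (0.41). *ACAN* encodes aggrecan, *HAPLN1* the link protein that binds it to hyaluronan, and *MATN3* and *CHAD* other cartilage matrix proteins. *ACAN* ranged from 0.46 in cyAC to 0.62 in pre-transplant cyiPS-Cart, whereas *FRZB*, a secreted Wnt inhibitor, ranged from 0.13 in post-transplant cyiPS-Cart to 0.74 in cyFT. *SPARC*, a collagen-binding matrix protein, went from 0.33 in pre-transplant cyiPS-Cart to 0.85 in cyFT. The 5 genes least alike were *B2M* (-0.35), *S100A4* (-0.34), *COX3* (-0.33), *TIMP2* (-0.29) and *PDXP* (-0.28). The median gene was at 0.02.

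The other genes of the cartilage matrix were read from a list of 15, of which 13 were listed in the files. In post-transplant against pre-transplant cyiPS-Cart, 4 of 12 tested were at least 2-fold higher and 3 at least 2-fold lower, with a median log2 ratio of 0.61, where 8.16% and 22.1% of all genes tested were. *CILP*, which encodes cartilage intermediate layer protein, was highest (734 against 25.7 CPM, 4.78), and *EPYC*, a small proteoglycan of growth plate cartilage, lowest (14.6 against 53.9 CPM, -1.81). Against cyAC, 2 of 11 were at least 2-fold higher and 2 lower in post-transplant cyiPS-Cart, from *MATN4* (4.08) to *CHAD* (-3.45), beside 10.8% and 17.8% of all genes. *CHAD* had 356 CPM in pre-transplant cyiPS-Cart, 1436 CPM in post-transplant cyiPS-Cart, 15717 CPM in cyAC and 7669 CPM in cyFT. In cyFT against cyAC, 3 of 10 were at least 2-fold lower and 0 higher, with a median of -0.64, from *CNMD* (0.64) to *MATN3* (-2.04), beside 3.73% of all genes lower. In pre-transplant cyiPS-Cart, 11 of 11 were at least 2-fold higher than in cyiPSC (18.4% of all genes), from *FMOD* (9.76) to *COL27A1* (2.86). These 11 genes had at most 9.59 CPM in cyiPSC, so reaching the 50 CPM limit for testing in pre-transplant cyiPS-Cart already put each past 2-fold. The count of 11 was thus set by the limit and cannot be weighed against the 18.4%. *CILP* (27.8 CPM, log2 ratio 4.70) and *MATN1* (0.741 CPM, -0.33) stayed under the limit in pre-transplant cyiPS-Cart and were not tested. Against cyAC, 5 of 12 were at least 2-fold lower and 2 higher in pre-transplant cyiPS-Cart, from *MATN4* (4.72) to *CHAD* (-5.46), beside 11.3% and 15.7% of all genes.

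The regulators followed another order than the chains. *SOX9* had 483 CPM in pre-transplant cyiPS-Cart, 785 CPM in post-transplant cyiPS-Cart, 395 CPM in cyAC and 555 CPM in cyFT, so that it was higher in cyFT than in cyAC while all 5 chains were lower. *SOX5* had 51.5, 77.8, 158 and 147 CPM. *SOX6* was under 50 CPM in each sample and was not among the genes tested. Of the 2 tested, 0 were past 2-fold between post- and pre-transplant cyiPS-Cart or between cyFT and cyAC, and 1, *SOX5*, was at least 2-fold lower than in cyAC in pre-transplant cyiPS-Cart (log2 ratio -1.60, 11.3% of all genes lower) and in post-transplant cyiPS-Cart (-1.02, 17.8% lower). With TMM scaling the latter was -0.90 and no longer past 2-fold, and *SOX9* went from 0.99 to 1.11 there.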

How the data were processed

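TAS-Seq read counts were analysed for 5 samples in 3 transcriptome libraries, and 3 hashtag libraries were not used here. The authors deposited 2 matrices of read counts per gene and cell. To make these counts, the authors assigned reads to Ensembl cDNA and ncRNA of Macaca_fascicularis_6.0 with Bowtie2 2.4.2, kept cells above the knee-plot inflection point, separated samples by hashtag, set background counts of highly expressed genes to 0, filtered on mitochondrial share, and reduced the second matrix to 320 cells per sample. R 3.6.3 was used for the inflection point and the background. The submitters' processing notes also name cutadapt 3.4 and the build GRCh38, which the methods give for human data. The methods describe no count of molecules, so the counts were taken as reads.

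Cells were assigned to samples by the prefixes of their names. Reads were summed per sample and given as CPM. Log2 ratios used a pseudocount of 1 CPM, whereas folds and their exact intervals used none. Genes tested had at least 50 CPM and reads in 25% of the cells of either sample, and past 2-fold means an absolute log2 ratio of at least 1. Poisson, conditional and Clopper-Pearson intervals are at 95%. Named genes were all members, the highest and lowest gene of each list, and the 10 most and 5 least alike genes by mean Spearman rho with the members' mean z-score, over genes with reads in 25% of the cells of each of the 4 samples. Ratios with *COL9A3* were replaced by *COL9A1* over *COL9A2*. The members and lists were chosen with earlier results of these data known. Doublets were called with scrublet in scanpy 1.11.5. In the first matrix 14 of 6027 cells were marked, too few for the caller to be relied on there. In the second matrix 8 cells of post-transplant cyiPS-Cart, 2 of cyAC and 2 of cyFT were marked. Marked cells were kept. TMM factors came from edgeR 4.0.16 on the summed counts. Of the steps, the log2 ratios, the ranking of alike genes and the thinning were tested on simulated data. According to RefSeq genes of a different assembly, which served for names only, *COL2A1*, *COL9A2* and *COL11A1* each overlap 1 lncRNA gene, and whether reads were shared was not tested.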

Additional observations from a re-analysis of the deposited data

How the results depend on the processing

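With pre-transplant cyiPS-Cart over cyiPSC, all 5 genes were past 2-fold under every alternative run. Of post-transplant over pre-transplant cyiPS-Cart, the count of 3 became 1 with totals without mitochondrial genes and in cells without *COL1A1* reads, and 0 at a 4-fold limit (3.10% of all genes higher). Of post-transplant cyiPS-Cart over cyAC, the count of 0 became 1 higher at a 1.5-fold limit (20.8% of all genes). Of cyFT over cyAC, the count of 2 became 5 with the mean of per-cell CPM, at a 1.5-fold limit (9.20% of all genes lower) and with cells thinned to equal depth, and 0 at a 4-fold limit (0.55%), in cells without *COL1A1* reads and in cells with *COL2A1* reads, a filter that a counted gene sets itself. Of pre-transplant cyiPS-Cart over cyAC, the count of 2 became 0 at a 4-fold limit (4.32% of all genes lower) and 1 in cells without *COL1A1* reads. The splits by *COL2A1* and *COL1A1* reads, and the one that left out 10 cyiPSCs, were chosen after seeing the data. The other 54 counts stayed within 1.5 times, while 61 chain ratios left their counting interval and 47 did not, 42 shares of cells left theirs and 108 did not, and 37 log2 ratios moved by 0.25 or more and 243 did not. With thinned cells the ratio of *COL11A1* to *COL11A2* was 1.375 in post-transplant cyiPS-Cart and 1.15 in cyFT. Without cells marked as doublets, the log2 ratio of *COL2A1* to cyiPSC was 13.03. With all genes that had reads in either sample, 13.7% were at least 2-fold higher and 5.70% lower in cyFT than in cyAC. No paired analysis was possible because each condition was 1 sample. The depth of 27500 to 80336 reads per cell and the corrected zeros both limit low levels in single cells.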

Other observations

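The collagens of fibrous and other matrices were higher in both organoid samples than in cyAC for part of their list. Of 13 genes, 11 were listed, and 6 of the 8 tested were at least 2-fold higher and 1 lower in post-transplant cyiPS-Cart than in cyAC, where 10.8% and 17.8% of all genes tested were. *COL1A2*, the α2 chain of collagen I, was highest of those tested (3.72 on the log2 scale), and *COL14A1*, a collagen on the surface of fibrils, was lowest (88.8 against 726 CPM, -3.02). In cyFT, 5 of 9 were at least 2-fold higher than in cyAC and 0 lower (7.06% and 3.73% of all genes), from *COL1A1* (18192 against 1196 CPM, 3.93) to *COL16A1* (-0.59). Between post- and pre-transplant cyiPS-Cart, 2 of 8 were at least 2-fold higher (8.16% of all genes), from *COL1A2* (2.74) to *COL5A2* (-0.43). In pre-transplant cyiPS-Cart against cyAC, 4 of 8 were at least 2-fold higher and 2 lower (15.7% and 11.3% of all genes), from *COL5A2* (3.22) to *COL14A1* (-3.61).

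Of 12 genes of procollagen processing, 11 were listed and 9 tested. In post-transplant over pre-transplant cyiPS-Cart 1 was at least 2-fold higher, *PLOD1* (1.23), and 1 lower, *PLOD2* (-1.17), which both encode lysyl hydroxylases of collagen. Of all genes tested 8.16% and 22.1% were, so the shares of the list were near or below the background. *P3H2*, a prolyl 3-hydroxylase, was highest in each comparison with cyAC. It had 497 CPM in pre-transplant cyiPS-Cart, 485 CPM in post-transplant cyiPS-Cart, 24.6 CPM in cyAC and 126 CPM in cyFT. *LOX*, which crosslinks collagen, had 649, 354, 105 and 45.01 CPM. In pre-transplant cyiPS-Cart, 9 of 9 were at least 2-fold higher than in cyiPSC, where 18.4% of all genes were. *PLOD1*, *PLOD2*, *P3H2* and *LOX* had at most 20.7 CPM in cyiPSC, so reaching the 50 CPM limit for testing already put them past 2-fold. *PCOLCE* and *P3H1* were also under the limit in cyiPSC (28.5 and 30.8 CPM). The count of 9 is thus partly set by the limit. *SERPINH1* (log2 ratio 2.13), *P4HA1* (2.72) and *CRTAP* (1.995) reached the limit in both samples.

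Lists of markers of other cell types were summed in the same way. The immune list summed to 649 CPM in cyFT and to 4.13 to 27.2 CPM in the other 3 samples of the second matrix, and the bone cell list to 1062 CPM in cyFT and 2.02 to 39.2 CPM in the others. *IBSP* alone gave 1042 of these 1062 CPM, whereas *SP7* had 0.0902 CPM and *DMP1* 2.07 CPM in cyFT. The endothelial list was at most 11.2 CPM in these samples. The fibroblast list summed to 72357 CPM in post-transplant cyiPS-Cart, 48287 CPM in cyFT, 23428 CPM in pre-transplant cyiPS-Cart and 9627 CPM in cyAC. *COL1A1*, *COL1A2* and *COL3A1* gave most of these sums, with 10168, 25851 and 34538 CPM in post-transplant cyiPS-Cart, whereas *THY1* (94.1 against 278 CPM) and *PDGFRA* (6.23 against 12.6 CPM) were lower and *LUM* (1698 against 1002 CPM) was higher there than in cyAC. Their part in the levels of the cartilage collagens was not tested.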
